A study of Homo sapiens with 12 samples.

Results

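The aminoacyl-tRNA synthetases are the enzymes that load each amino acid onto its tRNA, and their transcripts were followed here in Daoy cells, an established human medulloblastoma (MB) line, grown in astrocyte conditioned media (ACM) or in control DMEM. The members were the genes whose symbol is a single letter followed by ARS, ARS1 or ARS2 and whose product is a synthetase, together with EPRS1, FARSA and FARSB. All 37 such genes were measured, among 25275 genes tested, each by the brightest of its probes on a one-colour Agilent array. Of these, 20 encode cytosolic enzymes and 17 encode mitochondrial enzymes, and 2 of the cytosolic genes, GARS1 and KARS1, also supply the mitochondrial enzyme. All 37 probes were well above background on all 12 arrays.

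The ACM was the supernatant of astrocytes cultured from the hippocampi of newborn Sprague Dawley rats, and the control cells were handled alike in full DMEM. Cells were harvested after a single passage in either medium (P1) or after 3 passages (P3), each lasting 48 h. There were 3 arrays in each of the 4 groups (P1 ACM, P1 DMEM, P3 ACM and P3 DMEM), numbered 1 to 3 after 3 independent experiments. All groups were the same line, Daoy, in serum-containing medium, and no group received another agent, so the comparisons concern this line only. A level below is the log2 intensity of a probe minus the 75th percentile of its array, and a difference is ACM minus DMEM on that log2 scale, with its standard error from limma.

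Each synthetase recognises a single amino acid and its tRNAs, except for EPRS1, which carries both the glutamyl and the prolyl enzyme in one chain. The cytosolic phenylalanyl-tRNA synthetase is built of the FARSA and FARSB subunits. Most amino acids have a separate nuclear gene, with a name ending in 2, for the enzyme that serves the mitochondrial ribosome. Several cytosolic synthetases sit in the multisynthetase complex, held by AIMP1, AIMP2 and EEF1E1. Many cytosolic synthetase genes are known targets of ATF4, the transcription factor that cells make when amino acids run short, and WARS1 is in addition a well-known interferon gamma target.

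ATF4 acts on its targets through the C/EBP-ATF response element, TGATGNAA. This motif was searched on both strands of the RefSeq promoter windows (GRCh38.p14, from 250 bases before to 50 bases after the start of each gene), and it was found in 1003 of 27305 windows, 3.67%. Windows were at hand for 16 of the 20 cytosolic genes, and 6 of these, 37.5%, held the motif. All 6 were among the 10 windows of synthetase genes known as ATF4 targets, and none of the 6 windows of the other cytosolic synthetases held it. Among the mitochondrial genes 1 of 14 windows, that of YARS2, held it. The 6 cytosolic stretches are shown because these genes are set beside their levels further on; each is written 5′ to 3′ on the strand of the gene, with the motif or its reverse complement in capitals.

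AARS1, chr16:70289675-70289704, minus strand: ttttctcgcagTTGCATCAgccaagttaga
CARS1, chr11:3057407-3057436, minus strand: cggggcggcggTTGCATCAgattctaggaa
IARS1, chr9:92293692-92293721, minus strand: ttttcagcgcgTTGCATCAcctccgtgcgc
MARS1, chr12:57488053-57488082, plus strand: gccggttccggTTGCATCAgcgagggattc
NARS1, chr18:57621804-57621833, minus strand: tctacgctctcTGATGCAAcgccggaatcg
TARS1, chr5:33440956-33440985, plus strand: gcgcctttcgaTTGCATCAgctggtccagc

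All 6 matches read TTGCATCA or, on the other strand, TGATGCAA. A match in these letters is a description of the window and not evidence of binding in these cells.

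The labels of the arrays were checked first, because they bear on every value below. The deposited table of log2 values was compared with the 12 scanner files, and 0 of its 12 columns matched the scanner file of the same sample best. Each column matched the scanner file of another sample instead, with a rank correlation of at least 0.99999, against 0.953 to 0.992 with its own. The group was the same in 2 columns and the medium was the same in 4. Which of the labels was right cannot be told from the files. The labels of the scanner files were used throughout. Values under the table's own labels are given beside many, but not all, of the counts of the sets and lists, and for some members. The scan records held 3 scan times, each shared by 4 arrays. Arrays with the same scan time were taken to be on 1 slide, so the slides below are inferred from these times. All P1 ACM arrays were on slide 1, where the only other array was replicate 1 of P3 ACM. All P3 DMEM arrays were on slide 3, next to replicate 3 of P1 DMEM. Slide 2 took what remained, a pair of P3 ACM arrays (replicates 2 and 3) and a pair of P1 DMEM arrays (replicates 1 and 2). No slide thus carried both media at one passage, and the share of probes well above background was 74.3% to 80.4% on slide 2 against 88.1% to 94.6% on the other slides.

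The plot of centred levels shows 36 of the 37 genes over the 12 arrays.

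**Figure D1:**
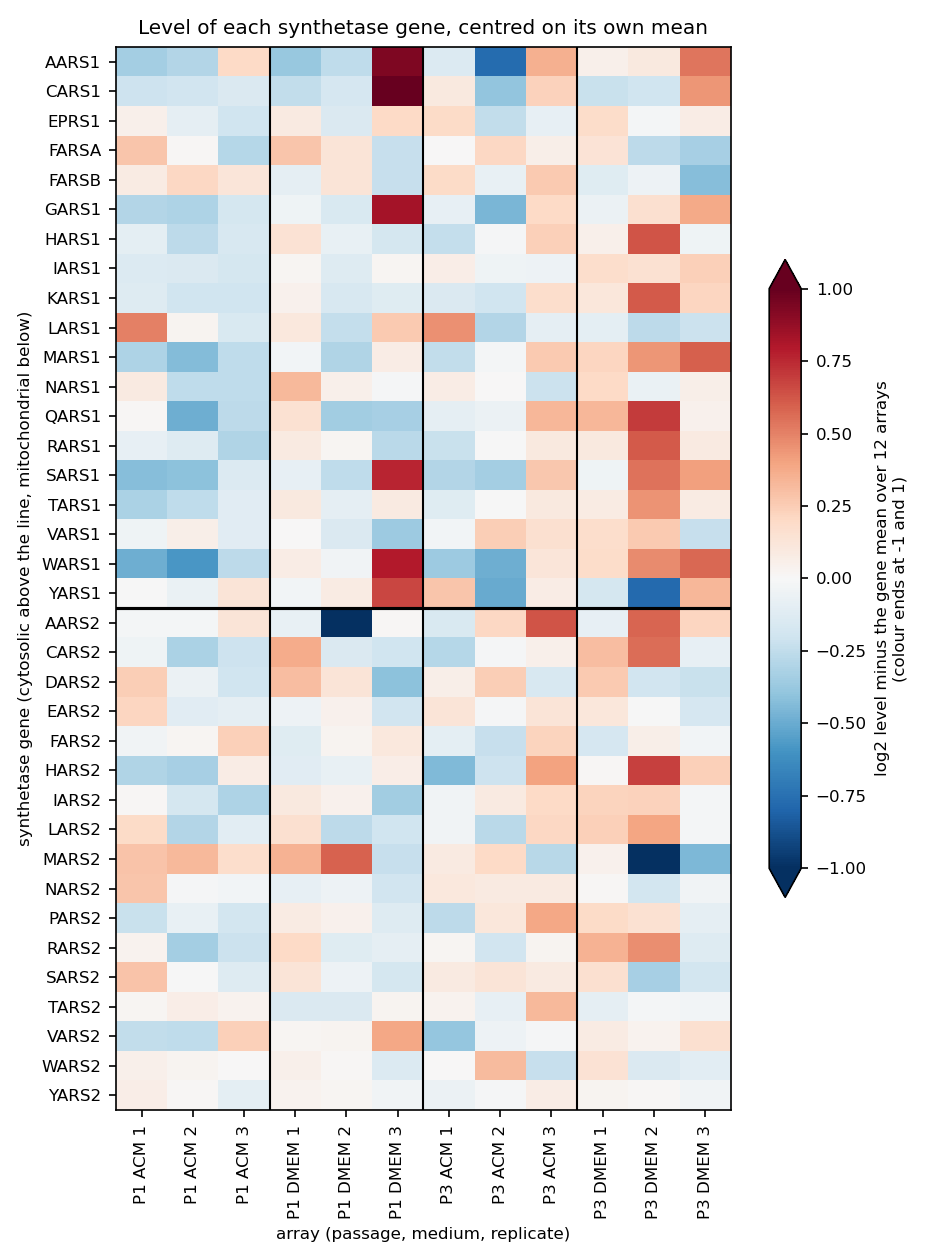
Level of 36 of the 37 synthetase genes (rows) in each of the 12 arrays (columns), as the log2 level minus the gene's own mean over the 12 arrays; red is above and blue below the mean, the colour ends at -1 and 1, vertical lines part the groups and the horizontal line parts the cytosolic from the mitochondrial genes. P1 DMEM replicate 3 held the highest value of 7 of the cytosolic genes drawn, and the darkest blue cells are AARS2 in P1 DMEM replicate 2 and MARS2 in P3 DMEM replicate 2.

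After 1 passage, most cytosolic synthetase transcripts were lower in ACM than in DMEM, by small amounts, while the mitochondrial ones lay on both sides of 0. Of the 20 cytosolic genes 17 were lower in ACM, with a median difference of -0.14. Of the 17 mitochondrial genes 8 were lower and 9 higher, with a median of 0.03. Over all genes 36.0% were lower in ACM and the median difference was 0.15, but the shift depended on brightness, and among the brightest 8425 genes, which held 17 of the 20 cytosolic and 13 of the 17 mitochondrial members, 65.9% were lower and the median was -0.08. WARS1 was the only member to pass an unadjusted limma p of 0.05, in either direction, and no member passed after Benjamini-Hochberg adjustment. The share of all genes with an unadjusted p at or below 0.05 was 24.0%, and 0% passed after adjustment. In the lower direction alone that share was 0.898% of all genes and 1.64% of the brightest 8425, beside 1 of the 37 members. None of the 37 passed the thresholds of the study, over 2-fold with p at or below 0.05, which 13.6% of all genes passed.

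WARS1 encodes the cytosolic tryptophanyl-tRNA synthetase. Its level was 2.68, 2.58 and 2.90 in the 3 P1 ACM arrays and 3.24, 3.13 and 3.96 in the 3 P1 DMEM arrays. All 3 ACM arrays were below all 3 DMEM arrays, and P1 DMEM replicate 3 stood well above the other two. The difference was -0.72 ± 0.25 (SE, n = 3 per group), a fold of 1.65, with an unadjusted limma p of 0.014 and an adjusted p of 0.118. Without P1 DMEM replicate 3 the difference was -0.47 and the limma p 0.066. With the slide as a block it was -0.29, and under the labels of the deposited table it was -0.19.

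GARS1 encodes the glycyl-tRNA synthetase of both compartments. Its level was 3.02, 3.01 and 3.14 in P1 ACM and 3.28, 3.17 and 4.15 in P1 DMEM. The groups did not overlap, and again P1 DMEM replicate 3 was the highest array. The difference was -0.47 ± 0.27, with a limma p of 0.11. Without P1 DMEM replicate 3 it was -0.16, and without P1 DMEM replicate 2 it was -0.66 with a limma p of 0.047. With the replicate number as a block the limma p was 0.043 for GARS1 and 0.0023 for WARS1, which made 2 members at or below 0.05 instead of 1.

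TARS1, the threonyl-tRNA synthetase, had levels of 3.12, 3.18 and 3.32 in P1 ACM and 3.53, 3.34 and 3.52 in P1 DMEM. Its groups did not overlap and it had no outlying array, with a difference of -0.26 ± 0.16 and a limma p of 0.13. With the slide as a block the TARS1 difference was -0.06, and under the labels of the deposited table it was -0.01. SARS1, the seryl-tRNA synthetase, had levels of 3.62, 3.64 and 3.92 in P1 ACM and 3.97, 3.79 and 4.81 in P1 DMEM. The ranges overlapped for SARS1, and the difference of -0.46 ± 0.28 shrank to -0.15 without P1 DMEM replicate 3. NARS1, the asparaginyl-tRNA synthetase, had levels of 2.54, 2.20 and 2.20 in P1 ACM and 2.78, 2.51 and 2.44 in P1 DMEM. The overlap for NARS1 came from P1 ACM replicate 1, and the difference was -0.26 ± 0.17 with a limma p of 0.15. KARS1, the lysyl-tRNA synthetase of both compartments, had levels of 4.23, 4.16 and 4.15 in P1 ACM and 4.40, 4.19 and 4.24 in P1 DMEM. That was a difference of -0.10 ± 0.17, and it was 0.0012 after quantile normalization.

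The other 14 cytosolic members had differences from -0.37 for CARS1 to 0.20 for FARSB at P1. Only FARSB, LARS1 and VARS1 of the cytosolic set were higher in ACM. Groups that did not overlap were found for 4 cytosolic members, GARS1, IARS1, TARS1 and WARS1, all lower in ACM, against 5.35% of all genes and 12.1% of the brightest 8425 in that direction. Scaling mattered to the count of signs. After quantile normalization, which moved the median of all genes at P1 from 0.15 to 0.0012, 13 of the 20 cytosolic members were lower and their median was -0.03. With the slide as a block 10 of 20 were lower, and 13 were under the labels of the deposited table.

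Among the mitochondrial enzymes, AARS2, the mitochondrial alanyl-tRNA synthetase, had the largest difference at P1, 0.53 ± 0.36. Its level was 1.59, 1.59 and 1.74 in P1 ACM and 1.53, 0.17 and 1.62 in P1 DMEM. The difference rested on P1 DMEM replicate 2 and was 0.06 without it. NARS2, the mitochondrial asparaginyl-tRNA synthetase, had levels of 0.32, 0.04 and 0.02 in P1 ACM and -0.04, 0.00 and -0.14 in P1 DMEM, a difference of 0.19 ± 0.14 with a limma p of 0.22. It was the only member whose groups did not overlap with ACM higher, a pattern shown by 30.6% of all genes but by 5.84% of the brightest 8425, to which NARS2 belonged. VARS2, the mitochondrial valyl-tRNA synthetase, had levels of 0.54, 0.54 and 1.03 in P1 ACM and 0.81, 0.82 and 1.18 in P1 DMEM. Its groups overlapped, and its difference was -0.23 ± 0.19 at P1. The other 14 mitochondrial members lay between -0.20 and 0.13.

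The intervals of the differences reflect the spread between arrays in a fit with no slide term, so a shift between slides is outside them. At P1 the 95% interval lay within 2-fold in either direction for 15 of 20 cytosolic and 16 of 17 mitochondrial members. The exceptions were AARS1, CARS1, GARS1, SARS1, WARS1 and AARS2. The width of an interval depends on the gene's spread between arrays as well as on the number of arrays, which was the same for every gene.

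**Figure D2:**
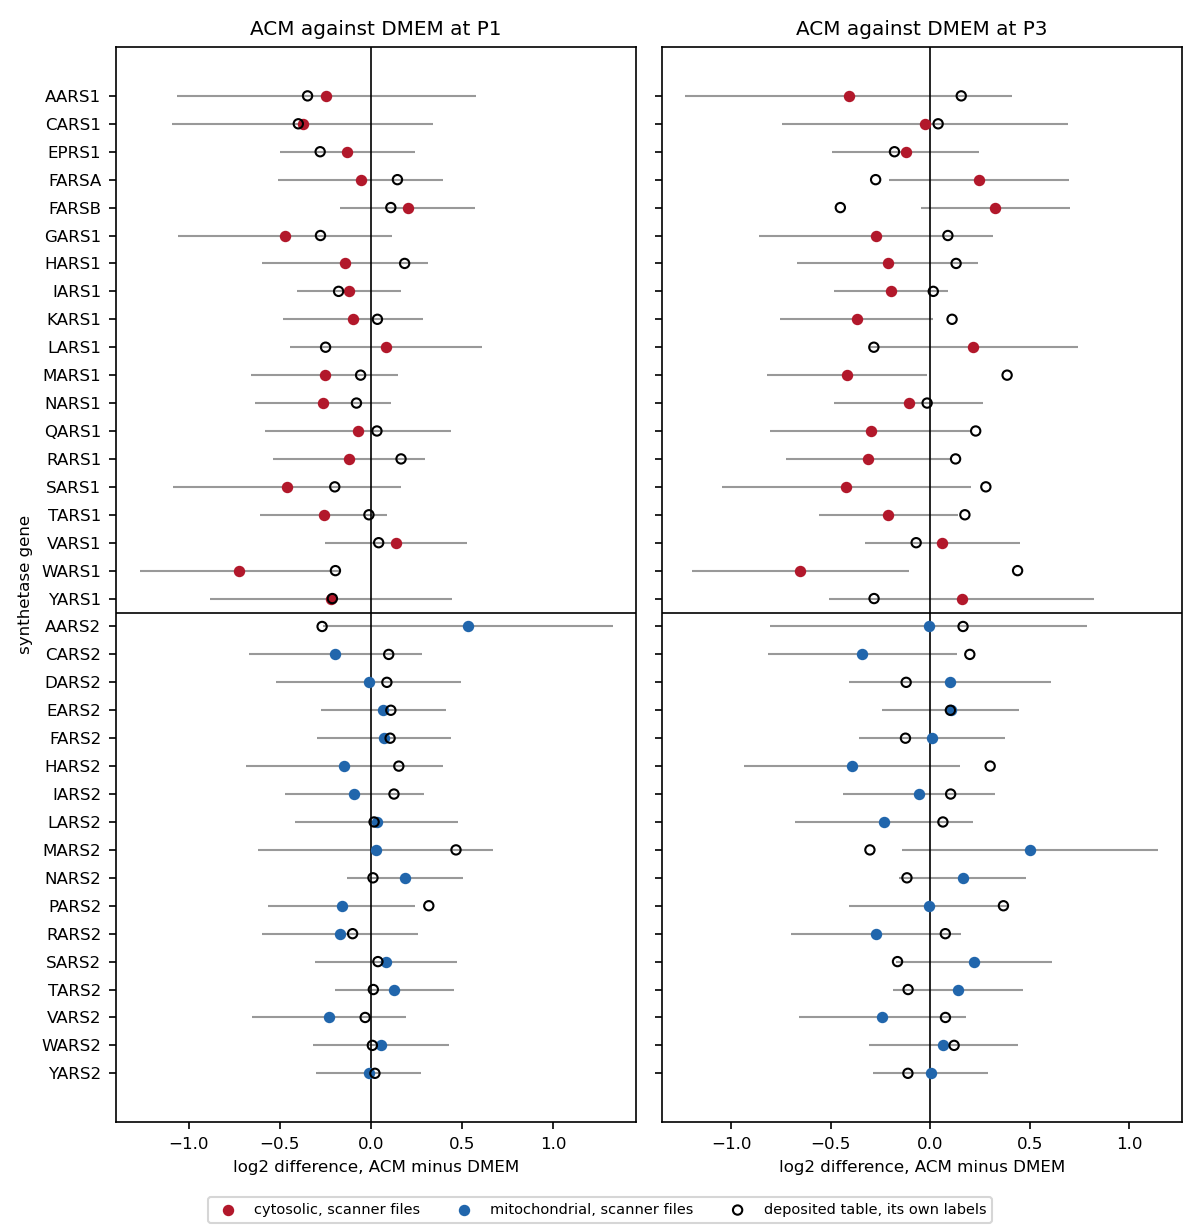
Difference in log2 level between ACM and DMEM for 36 of the 37 synthetase genes at P1 (left) and P3 (right); filled points are the scanner files (red cytosolic, blue mitochondrial) with their 95% intervals from limma (n = 3 per group), and open circles are the deposited table under its own labels. Most cytosolic points lie left of 0 at both passages, only WARS1 at both passages and MARS1 at P3 have intervals that leave out 0, and at P3 most open circles lie on the other side of 0 from the filled points of the cytosolic genes.

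After 3 passages the cytosolic set was again mostly lower in ACM, with WARS1 and MARS1 past an unadjusted p of 0.05. Of the 20 cytosolic genes 15 were lower, with a median difference of -0.21, and of the 17 mitochondrial genes 8 were lower, with a median of 0.0015. Over all genes 49.6% were lower and the median was 0.0035, and among the brightest 8425 genes 63.5% were lower with a median of -0.09. The 2 members with a limma p at or below 0.05 stood beside 7.23% of all genes, or 3.40% in the lower direction. No member and 0% of all genes passed after adjustment, and no member passed the thresholds of the study, which 1.73% of all genes passed. At both passages 15 cytosolic and 6 mitochondrial members were lower in ACM. FARSB, LARS1 and VARS1 were higher at both passages, and FARSA and YARS1 were lower at P1 and higher at P3.

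The level of WARS1 was 2.80, 2.68 and 3.29 in P3 ACM and 3.35, 3.64 and 3.74 in P3 DMEM. The groups did not overlap, although P3 ACM replicate 3 came close to P3 DMEM replicate 1. The difference was -0.65 ± 0.25, a fold of 1.57, with an unadjusted limma p of 0.023 and an adjusted p of 0.687. Leaving out P3 ACM replicate 1 or 2, or P3 DMEM replicate 2 or 3, brought that limma p to between 0.057 and 0.085. With the slide as a block the difference at P3 was 0.18, and under the labels of the deposited table it was 0.44, so the sign at P3 depended on the slide and on the labels.

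MARS1, the methionyl-tRNA synthetase and a member of the multisynthetase complex, had levels of 4.22, 4.44 and 4.73 in P3 ACM and 4.68, 4.91 and 5.06 in P3 DMEM. Only P3 ACM replicate 3 reached into the DMEM range. The difference was -0.42 ± 0.18, with an unadjusted limma p of 0.043 and an adjusted p of 0.704, and under the labels of the deposited table it was 0.39. It passed 0.05 in none of the fits without a P1 ACM array, without P1 DMEM replicate 1, without P3 ACM replicate 1 or 2, or without P3 DMEM replicate 2 or 3, where the limma p was between 0.055 and 0.14. A second, dimmer MARS1 probe, which was also kept, had a difference of 0.55 at P3 with a limma p of 0.0069, opposite in sign, so the gene had no settled direction at P3. The 3 probes of IARS1 had differences of -0.20, 0.26 and -0.07 at P3, none with a limma p at or below 0.05.

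KARS1 had levels of 4.21, 4.16 and 4.53 in P3 ACM and 4.47, 4.97 and 4.57 in P3 DMEM. One ACM array overlapped the DMEM range, and the difference was -0.37 ± 0.17 with a limma p of 0.058. GARS1 had levels of 3.24, 2.86 and 3.52 in P3 ACM and 3.26, 3.48 and 3.70 in P3 DMEM. Its ranges overlapped, with a difference of -0.28 ± 0.27 at P3 against -0.47 at P1. RARS1, the arginyl-tRNA synthetase, had levels of 4.03, 4.25 and 4.35 in P3 ACM and 4.35, 4.87 and 4.35 in P3 DMEM. The difference for RARS1 was -0.31 ± 0.19 with a limma p of 0.13, and it was -0.14 without P3 DMEM replicate 2, its highest array. FARSB, which forms the phenylalanyl-tRNA synthetase with FARSA, had levels of 2.05, 1.78 and 2.12 in P3 ACM and 1.74, 1.80 and 1.43 in P3 DMEM. It lay in the opposite direction to most of the set, with a difference of 0.33 ± 0.17 and a limma p of 0.081, and its partner FARSA had a difference of 0.24. After quantile normalization FARSB was the only member with a limma p at or below 0.05 at P3, 0.030, and under the labels of the deposited table its difference was -0.45. The other 14 cytosolic members lay between -0.42 for SARS1 and 0.24 for FARSA at P3.

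MARS2, the mitochondrial methionyl-tRNA synthetase, had the largest mitochondrial difference at P3, 0.50 ± 0.29 with a limma p of 0.11. Its level was -3.20, -3.09 and -3.56 in P3 ACM and -3.24, -4.37 and -3.73 in P3 DMEM. The ranges overlapped, and P3 DMEM replicate 2 was the lowest of the 12 arrays. The difference was 0.21 without that array and 0.77, with a limma p of 0.022, without P3 DMEM replicate 1. HARS2, the mitochondrial histidyl-tRNA synthetase, had levels of 1.09, 1.33 and 1.94 in P3 ACM and 1.55, 2.22 and 1.78 in P3 DMEM. Its difference of -0.40 ± 0.25 became -0.64 without P3 ACM replicate 3, with a limma p of 0.019, and -0.21 without P3 DMEM replicate 2. CARS2, the mitochondrial cysteinyl-tRNA synthetase, had levels of 1.48, 1.76 and 1.82 in P3 ACM and 2.08, 2.33 and 1.69 in P3 DMEM, and its groups overlapped through P3 DMEM replicate 3. The difference for CARS2 was -0.34 ± 0.22 at P3, and leaving out single arrays gave -0.51 to -0.19. HARS1 and HARS2 start back to back, and their RefSeq promoter windows share 184 bases on opposite strands. The HARS1 differences were -0.14 at P1 and -0.22 at P3, beside -0.15 and -0.40 for HARS2.

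At P3 groups that did not overlap were found for WARS1, IARS1 and VARS2 with ACM lower, against 4.99% of all genes and 8.74% of the brightest 8425, and for NARS2 with ACM higher, against 4.77% and 3.48%. NARS2 had levels of 0.15, 0.14 and 0.14 in P3 ACM and 0.06, -0.14 and 0.01 in P3 DMEM. These ACM values of NARS2 were nearly equal, and the difference of 0.16 ± 0.14 was small. Only 7 of the 20 cytosolic members were lower in ACM at P3 under the labels of the deposited table, with a median of 0.10, against 15 and -0.21 under those of the scanner files. Of the 17 mitochondrial members 7 were lower at P3 under the table's labels, with a median of 0.07. Of the 37 intervals at P3, 17 cytosolic and 16 mitochondrial ones lay within 2-fold. That of CARS1 was among them, although its difference was 1.12 with the slide as a block.

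**Figure D3:**
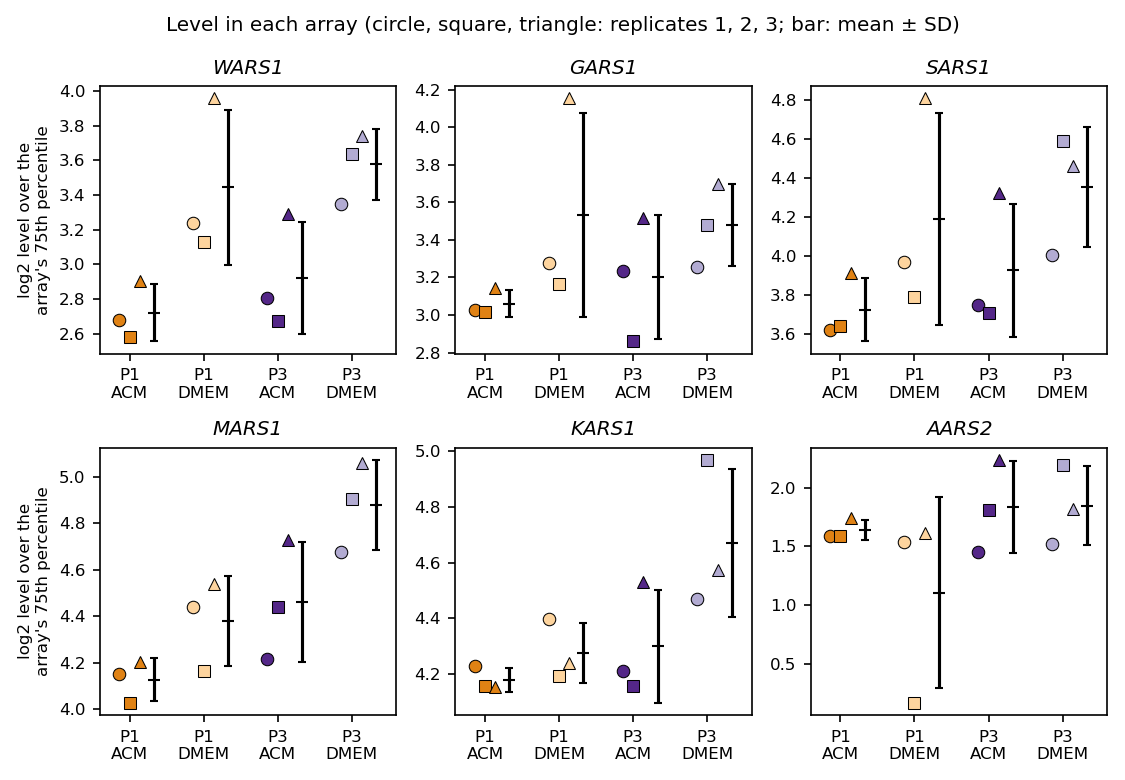
Level of 6 synthetase genes in each array (y axis, log2 intensity minus the array's 75th percentile; the axes do not start at 0 and differ between genes); circles, squares and triangles are replicates 1, 2 and 3, and the bars beside them are the mean ± SD of 3 arrays. WARS1 is lower in ACM than in DMEM at both passages with no overlap, P1 DMEM replicate 3 is the highest array for WARS1, GARS1 and SARS1, and the AARS2 mean of P1 DMEM is pulled down by replicate 2.

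The difference of the ACM effect between P1 and P3 was tested for each member as an interaction. No member had a limma p at or below 0.05 for it, against 8.27% of all genes, and 0% of all genes passed after adjustment. The smallest limma p among the members was 0.274, for MARS2.

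Between the passages, 5 members had a limma p at or below 0.05 in DMEM and none in ACM. The shares of all genes were 8.11% in DMEM and 13.7% in ACM, with 0% after adjustment in either medium. In DMEM 4 cytosolic members were higher at P3, against 5.12% of all genes in that direction. Among them were KARS1 (0.39 ± 0.17), MARS1 (0.50 ± 0.18) and QARS1 (glutaminyl, 0.53 ± 0.23), whose enzymes belong to the multisynthetase complex. MARS2 was lower at P3 in DMEM, by a difference of -0.74 ± 0.29. The adjusted limma p was 0.572 for each of the 5. Of the 8 complex enzymes 7 were higher at P3 in DMEM, with a median of 0.36, beside a median of 0.15 for the cytosolic set and 0.08 for all genes. After quantile normalization none of the 37 had a limma p at or below 0.05 for this contrast, and the complex enzymes had a median of 0.13. Without P1 DMEM replicate 2 none had, without P3 DMEM replicate 2 only MARS1 had, and without P3 DMEM replicate 3 QARS1 and YARS1 had. As many as 7 of the 8 complex enzymes were lower at P3 in DMEM under the labels of the deposited table, and no member had a limma p at or below 0.05. Slide 3 held all P3 DMEM arrays and P1 DMEM replicate 3, and within it the P3 mean minus that single P1 array was 0.43 for KARS1, 0.34 for MARS1, 0.69 for QARS1 and -0.27 for MARS2.

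The cytosolic and the mitochondrial sets were then compared as wholes. For this the levels of each gene were centred on its mean over the 12 arrays and the median over the set was taken in each array, as a description with no test. The cytosolic median was -0.09, -0.22 and -0.17 in P1 ACM and 0.03, -0.14 and 0.05 in P1 DMEM. It was -0.08, -0.13 and 0.17 in P3 ACM and 0.09, 0.21 and 0.15 in P3 DMEM. The cytosolic median was highest in P3 DMEM, 0.15 ± 0.06 (SD, n = 3), and lowest in P1 ACM, -0.16 ± 0.07, and ACM and DMEM overlapped at each passage. Between arrays of the same replicate number it was lower in ACM in 3 of 3 pairs at P1, by differences of -0.12, -0.08 and -0.22, and in 2 of 3 at P3. The mitochondrial median stayed between -0.14 and 0.11 in all 12 arrays. Its group means were -0.04 ± 0.06 in P1 ACM, -0.02 ± 0.10 in P1 DMEM, 0.02 ± 0.06 in P3 ACM and 0.04 ± 0.08 in P3 DMEM, and the ranges of the 4 groups overlapped. The gap between the sets within an array, cytosolic minus mitochondrial, was -0.12 ± 0.04 in P1 ACM, 0.0026 ± 0.17 in P1 DMEM, -0.03 ± 0.10 in P3 ACM and 0.12 ± 0.12 in P3 DMEM. These groups overlapped at both passages as well. Counting GARS1 and KARS1 with the mitochondrial set too gave medians of the ACM differences of -0.01 at P1 and -0.0078 at P3, in place of 0.03 and 0.0015.

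**Figure D4:**
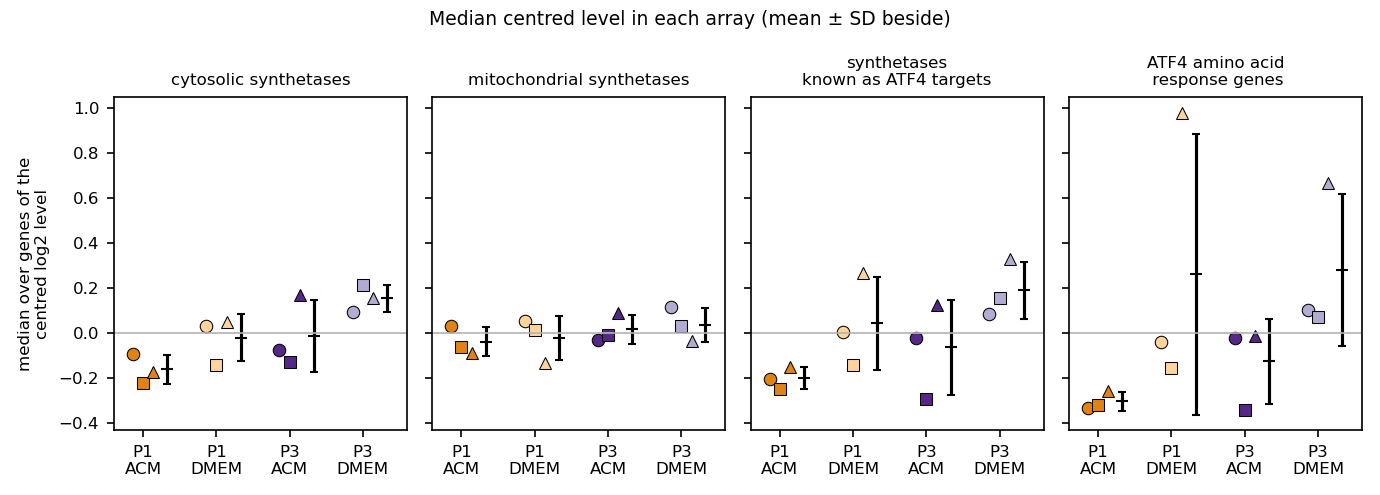
Median centred log2 level over the genes of a list in each array (y axis), for the 20 cytosolic synthetases, the 17 mitochondrial synthetases, the 13 synthetases known as ATF4 targets and 29 other ATF4 amino acid response genes; circles, squares and triangles are replicates 1, 2 and 3, and the bars are the mean ± SD of 3 arrays. The mitochondrial medians stay close to 0, the cytosolic ones are on average highest in P3 DMEM, and P1 DMEM replicate 3 stands out for the ATF4 response genes at 0.98.

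For 18 pairs of a cytosolic gene with the mitochondrial gene of the same amino acid, counting EPRS1 and FARS2 with both of their partners, the cytosolic difference was the lower of the pair in 12 at P1 and in 11 at P3. The median gap of the pairs was -0.15 at P1 and -0.13 at P3. Under the labels of the deposited table it was the lower in 13 and 11, with median gaps of -0.15 and -0.12. The widest gaps at P1 were those of alanine and tryptophan, both -0.78. For alanine it rested on the single low AARS2 array. For tryptophan, WARS1 minus WARS2 within an array was 3.75, 3.68 and 4.02 in P1 ACM and 4.32, 4.24 and 5.22 in P1 DMEM. These did not overlap, and the two-sided exact permutation test gave p = 0.1, the smallest that 3 against 3 arrays allow. The pair was picked for its gap in these same arrays, so the test adds no independent support. At P3 WARS1 minus WARS2 was 3.92, 3.49 and 4.65 in ACM and 4.33, 4.91 and 4.98 in DMEM, with an exact permutation p of 0.2. Under the labels of the deposited table the P3 gap of this pair was 0.32. WARS2 itself had differences of 0.05 at P1 and 0.06 at P3.

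The 13 synthetase genes known as ATF4 targets had a median ACM difference of -0.25 at P1, with 11 lower, and of -0.20 at P3, with 10 lower. Of the 13, 12 were lower at P1 and 5 at P3 under the labels of the deposited table, with a P3 median of 0.04, and the P3 median was 0.18 with the slide as a block and -0.02 after quantile normalization. The other 7 cytosolic genes had medians of -0.07 at P1, with 6 lower, and -0.30 at P3, with 5 lower. At P1 1 of these 7 was lower under the labels of the deposited table (median 0.11). It was also 1 with the slide as a block (0.04), and 2 after quantile normalization (0.03). At P3 2 of the 7 were lower under the table's labels (0.13). With the slide as a block 6 were lower (-0.31), and after quantile normalization 5 were (-0.10). The 6 cytosolic genes whose windows held the motif were lower in ACM at both passages, with medians of -0.26 and -0.21. At P3 this did not hold under the labels of the deposited table, where 1 of the 6 was lower and the median was 0.10. With the slide as a block 4 of the 6 were lower at each passage, and the P3 median was -0.06. In that fit AARS1 had 0.82 and CARS1 1.12 at P3, higher in ACM, with limma p of 0.16 and 0.025. After quantile normalization the P3 median of the 6 genes was -0.04. They are, in the order of the sequences above, AARS1 (-0.25 at P1 and -0.41 at P3), CARS1 (-0.37 and -0.03), IARS1 (-0.12 and -0.20), MARS1 (-0.25 and -0.42, with the opposite sign from its second probe at P3), NARS1 (-0.26 and -0.11) and TARS1 (-0.26 and -0.21). WARS1 and GARS1, the members with the smallest limma p at P1, were not among them. Windows were at hand for only 10 of the 13 listed ATF4 targets, so absence from the 6 need not mean that the motif is absent. By structural class, the 19 class I genes had medians of -0.12 at both passages, and the 18 class II genes had medians of -0.08 at P1 and -0.06 at P3. Under the labels of the deposited table all 4 of these medians were above 0, at 0.0077 and 0.07 for class I and 0.02 and 0.10 for class II.

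P1 DMEM replicate 3 was the highest of the 12 arrays for AARS1, CARS1, EPRS1, GARS1, SARS1, WARS1 and YARS1, which are 7 of the 13 listed ATF4 targets. It was the lowest of the 12 for VARS1, another of the 13, and neither for the other 5. The other ATF4 response genes were high in the same array. This list of 29 genes of amino acid synthesis, transport and stress signalling had a median centred level of 0.98 in that array, against -0.04 and -0.16 in P1 DMEM replicates 1 and 2 and -0.33 to -0.26 in P1 ACM. In P3 DMEM it was 0.10, 0.07 and 0.67, and in P3 ACM -0.02, -0.34 and -0.01. Of the 29 genes 27 were lower in ACM at P1, with a median of -0.61, and 7 of them had a limma p at or below 0.05. The brightest 8425 genes held 24 of the 29, and 65.9% of these 8425 were lower. With such a p, 1.64% of the 8425 and 0.898% of all genes were lower. With the slide as a block 20 of the 29 were lower at P1, with a median of -0.36. In this list the smallest limma p at P1 were those of SLC6A9, a glycine transporter (-1.50 ± 0.44), and PSAT1, an enzyme of serine synthesis (-0.87 ± 0.27). At P3 24 of the 29 were lower, with a median of -0.41, against 63.5% of the brightest 8425 genes. SLC6A9 (-1.11 ± 0.44) and PSPH were among 3 of the list lower with a limma p at or below 0.05, against 3.40% of all genes. CHAC1, which degrades glutathione, was the 1 higher with such a p (0.91 ± 0.36), against 3.83% of all genes. With the slide as a block the P3 median of this list was 0.56, and under the labels of the deposited table it was 0.41. The part of these genes' level in the synthetase differences was not tested.

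Among 8 interferon gamma response genes, set beside WARS1, 6 were lower in ACM at P1 with a median of -0.33, and 7 at P3 with a median of -0.40. Over all genes 36.0% were lower at P1 and 49.6% at P3. With a limma p at or below 0.05, 2 of the 8 were lower at P1 and 1 at P3, against 0.898% and 3.40% of all genes. Taken by the labels of the deposited table, 5 of the 8 were lower at P1 and 1 at P3, where the median was 0.30. With the slide as a block 4 were lower at P3 with a median of 0.15. GBP1, an interferon-induced GTPase, had differences of -0.62 ± 0.21 at P1 and -0.55 ± 0.21 at P3, with limma p of 0.013 and 0.024. IRF1, a transcription factor of the interferon response, had -0.91 ± 0.40 at P1, with a limma p of 0.046, and IDO1, which degrades tryptophan, had -0.93 ± 0.55 at P3, with a limma p of 0.12, although its probe was well above background on 1 of the 3 P3 ACM arrays. Under the labels of the deposited table GBP1 had 0.22 at P1 and 0.91 at P3.

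The partners of the synthetases were examined as further lists. None of the 4 scaffold and related genes (AIMP1, AIMP2, EEF1E1 and TARS3) had a limma p at or below 0.05 at P1 or P3. TARS3, a further cytosolic threonyl-tRNA synthetase gene, had the largest difference among them, 0.24 ± 0.21 at P1. AIMP2 had -0.06 at P1 and AIMP1 had -0.10 at P3. The 4 genes for mitochondrial glutaminyl-tRNA and formyl-methionyl-tRNA, which stand in for a synthetase or act after one, had none either, and MTFMT had 0.24 at both passages, beside 0.08 for QRSL1 at P1 and -0.46 for GATB at P3. Of the 7 elongation and tRNA export factors none passed, with EEF1A1, which brings charged tRNA to the ribosome, at -0.34 at P1 and -0.35 at P3. XPOT, the tRNA exporter, had -0.28 at P1, and EEF1B2, an elongation factor subunit, had -0.30 at P3. All 10 mitochondrial translation factors were lower in ACM at P1 and 9 at P3, with medians of -0.07 and -0.18 and no limma p at or below 0.05. The brightest 8425 genes held 9 of the 10, and 65.9% of these 8425 were lower at P1 and 63.5% at P3. By the labels of the deposited table, 2 of the 10 were lower at P1 and 1 at P3, with medians of 0.10 and 0.26. At P1 4 of the 10 were lower with the slide as a block and 6 after quantile normalization. Their smallest limma p were those of MTIF3 (-0.25) and GFM1 (-0.18) at P1 and of TSFM (-0.28) and TUFM (-0.22) at P3.

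NES, VIM, SOX9, GLI2 and PTCH1, listed as markers of a neural tumour line, were well above background on all 12 arrays. So were AQP4, ALDH1L1, SLC1A3, GJA1 and ALDOC among the astrocyte markers and PTPRC, CD68, ITGAM and CDH5 among the leukocyte and endothelial markers. Detection alone thus does not tell these kinds of cell apart. The linear levels of the 5 neural tumour markers were summed in multiples of each array's 75th percentile. The sum was highest in P3 DMEM, at 114 to 176, against 90.3 to 102 in P3 ACM. At P1 it was 83.3 to 106 in ACM and 91.0 to 137 in DMEM. VIM alone made up 97.9% to 98.9% of this sum. VIM was lower in ACM at P3 (-0.52 ± 0.21, limma p 0.031), and SOX9 had -0.83 at P1. Of 9 astrocyte markers GFAP was not kept by the filter, and their summed level, of which GJA1 made up 56.9% to 83.3%, ran from 3.42 to 5.71 over the 12 arrays. At P1, 4 of the 8 astrocyte markers kept were higher and 1, AQP4, was lower in ACM with a limma p at or below 0.05. In the higher direction that share was 23.1% of all genes and 50.8% of the dimmest 8425, which held 6 of the 8, and after quantile normalization the median of the 8 fell from 0.48 to 0.06 with 4 lower. The smallest limma p were those of ALDH1L1 (1.65) and GJB6 (2.70), but GJB6 was well above background on 1 of the 3 P1 DMEM arrays and S100B, another of the 4, on none. At P3 AQP4 (-1.94) and SLC1A3 (-0.53) were lower. Of 5 leukocyte and endothelial markers measured, 2 at P1 and 4 at P3 were higher in ACM with a limma p at or below 0.05, against 23.1% and 3.83% of all genes in that direction. The smallest limma p were those of PECAM1 (1.79, with 2 of 3 P1 DMEM arrays well above background) and ITGAM (0.49) at P1 and of PTPRC (0.75) and CD68 (1.22) at P3. Under the labels of the deposited table all 5 were lower in ACM at P3, with a median of -0.61. Their summed level was 17.4 to 24.7 in P1 ACM against 12.7 to 18.0 in P1 DMEM, and at P3 it was 14.4 to 22.0 in ACM against 10.3 to 12.3 in DMEM, with 89.1% to 92.6% of it from ITGAM. The part of these markers in the synthetase differences was not tested. In bulk RNA, fewer cells of a kind and less transcript per cell cannot be told apart.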

How the data were processed

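Total RNA of 12 Daoy cultures was hybridised, 1 sample per array, to one-colour Agilent 4 x 44K arrays. The authors deposited scanner files with intensity values, made with Agilent Feature Extraction (version 11.0.1.1 in the submitters' processing notes), and a table of normalized log2 values for 30569 probes; how that table was scaled is not given in the sources used here. From the scanner files, 1377 control spots and 3071 outlier values were left out and log2 of the processed signal minus each array's 75th percentile was taken. Probes well above background on all arrays of a group were kept (31078 of 34127). RefSeq accessions gave 25771 probes a symbol, the rest kept the name in the files, and the brightest kept probe stood for a gene. limma 3.58.1 (R 4.3.3) fitted 4 group means over the 12 arrays (8 residual degrees of freedom), two-sided, with Benjamini-Hochberg adjustment over all kept probes; it was tested on simulated data. Values are described at P1 and P3 for the 5 cytosolic and 3 mitochondrial members with the smallest p of that contrast and for GARS1 and KARS1, and for the 2 genes of each other list with the smallest p, and further genes were named after their values were seen. Values of 1 member are not reported here and it is not plotted, though it is in the counts and medians. The members and lists were chosen with earlier results of these data known. The deviations of same-numbered ACM and DMEM arrays had correlations of 0.43, 0.18 and 0.27 at P1 and of 0.23, -0.19 and 0.06 at P3. Alternatives covered scaling, background, filters, moderation, blocks, probe choice, the deposited table and each array left out. The arrays give no counts, and their number limits the precision. A limma p-value sets a difference against the spread of these arrays within their groups, and the main fit had no slide term.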

Additional observations from a re-analysis of the deposited data

How the results depend on the processing

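Members with a limma p at or below 0.05 numbered 1 for ACM against DMEM at P1, 2 at P3, 5 for P3 against P1 in DMEM, and 0 both for P3 against P1 in ACM and for the difference of the ACM effect. With no filter, a stricter filter, or trend and robust moderation, each of these counts stayed within 1.5 times. Quantile normalization gave 1 at P3 and 0 in DMEM, a cytosolic median of -0.053 at P3, and 0.0012 for KARS1 at P1. Normexp background correction with quantile normalization gave 1 in DMEM and a cytosolic median of -0.067 at P3. The fit to only the arrays compared gave 1 at P3 and 2 in DMEM. The methods' t-test gave 1 at P1 (TARS1, in place of WARS1), 2 in DMEM and 1 in ACM; at P1 and P3 it gave 0 members past the study's thresholds and 0 after adjustment. The mean of all kept probes of a gene gave 1 at P3 and 0.065 for MARS1. For none of these was the cause of the change tested.

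Under the deposited table's own labels the counts were 0 at P1, 1 at P3, 0 in DMEM, 1 in ACM and 1 for the difference of the ACM effect, and the cytosolic median at P3 was 0.10. AARS2 turned to -0.27 and KARS1 to 0.036 at P1. At P3 WARS1 turned to 0.44, MARS1 to 0.39, KARS1 to 0.11, FARSB to -0.45, RARS1 to 0.13, MARS2 to -0.30, HARS2 to 0.30, CARS2 to 0.20 and GARS1 to 0.087. The columns of the table are other samples' arrays, so this alternative regroups the arrays.

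With the replicate block, 2 members passed at P1 and 3 in DMEM, and the counts at P3 and in ACM did not move. At P3 the limma p with this block was 0.0041 for WARS1 and 0.024 for MARS1. The deviations of same-numbered P3 ACM and DMEM arrays had correlations of 0.23, -0.19 and 0.06, so the pairing at P3 was uneven. With the slide as a block the counts were 0 at P1, 1 at P3 and 1 for the difference of the ACM effect. The 1 at P3 was CARS1, at 1.12, higher in ACM. The cytosolic medians were -0.019 at P1 and -0.064 at P3. SARS1 turned to 0.11, VARS2 to 0.25 and KARS1 to 0.018 at P1, and WARS1 turned to 0.18, MARS2 to -0.24 and GARS1 to 0.64 at P3. With the slide as a random block the counts were 0 at P1, 0 at P3 and 2 in DMEM, and GARS1 turned to 0.060 at P3. The slide as a block after quantile normalization gave 1 at P3 and 2 for the difference of the ACM effect, with medians of 0.094 (cytosolic) and -0.14 (mitochondrial) at P3. SARS1 then turned to 0.10 and VARS2 to 0.25 at P1, and WARS1 to 0.35, MARS1 to 0.17, MARS2 to -0.32, HARS2 to 0.061 and GARS1 to 0.80 at P3. These blocked values rest on few arrays, since ACM and DMEM of a passage shared no slide.

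Leaving out the 4 arrays of slide 2, an alternative chosen after seeing the data, gave 5 members at P1 (AARS1, CARS1, GARS1, SARS1 and WARS1, all lower in ACM), 2 in DMEM and 2 for the difference of the ACM effect; P1 DMEM was then its replicate 3 alone, taken to vary like the other groups. Leaving out each of the 12 arrays gave 0 to 2 members at P1, 0 to 5 at P3, 0 to 5 in DMEM, 0 to 2 in ACM and 0 for the difference of the ACM effect. The cytosolic median then ran from -0.20 to -0.10 at P1 and from -0.30 to -0.15 at P3, and the mitochondrial one from -0.049 to 0.075 and from -0.11 to 0.074. The count was 0 at P1 without P1 DMEM replicate 3, 0 at P3 without P3 ACM replicate 1 or P3 DMEM replicate 2, and 0 in DMEM without P1 DMEM replicate 2.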
